A study of Homo sapiens with 20 samples.

Results

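The transcriptional coactivators YAP1 and WWTR1 (TAZ), the TEAD factors that carry them to DNA, 4 of their targets and 2 angiomotin-like inhibitors were followed in nickel-exposed BEAS-2B cells, an immortalised line from human bronchial epithelium. The 10 genes were taken by symbol: YAP1, WWTR1, TEAD1, TEAD4, CTGF, CYR61, ANKRD1, AXL, AMOTL1 and AMOTL2. They are 10 of the 25411 genes listed in each of the 20 RNA-seq libraries. They were tested with edgeR's quasi-likelihood test, with p-values adjusted by the Benjamini-Hochberg method over all genes tested. None of the 10 genes passed it in any of the 10 comparisons run, which are not all that the groups allow. DESeq2 called 2 of them, TEAD4 and AMOTL2, in 1 comparison. The values below therefore describe levels, the spread between libraries and the intervals on each change, and not a shown response to nickel.

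The 20 libraries fell into 7 groups, all of BEAS-2B cells. The unexposed cells were Control_3D (n = 4) and Control_6W (n = 2), the controls of the 3-day and 6-week arms by their titles. Ni_3D (n = 2) and Ni_6W (n = 2) were exposed to nickel chloride for those times. Ni_6W+2W (n = 2) was exposed for 6 weeks, washed and kept without nickel for 2 weeks. Ni_3D+14D (n = 2) has only its title, which adds 14D to the 3-day name. Ni_clone (n = 6) holds 1 library from each of 6 populations grown without nickel from single colonies of cells that had been exposed for 6 weeks. The clones may share 1 parent population, which could not be checked here, and have no unexposed clones to stand beside. The labels write 100 mM nickel chloride for the cells that were cloned, a unit that could not be checked here, and tie no dose to the other groups. They do not tell whether replicates are different cultures. Each p-value is therefore set by library-to-library spread that may be technical. The study asked whether nickel leaves a lasting mesenchymal state in lung epithelial cells.

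The epithelial keratins KRT8 (187 to 831 CPM, reads normalised to library size) and KRT18 (135 to 386 CPM) were present in all 20 libraries. The basal airway factor TP63 was under 1 CPM in all 20, the basal keratin KRT5 in 19 and the epithelial cadherin CDH1 in 15, so the label of bronchial epithelium rests here on simple keratins. A list of 5 oestrogen-responsive breast epithelial genes (ESR1, TFF1, PGR, GREB1 and GATA3), not markers of airway cells, summed to 77.7 CPM in Control_3D 1 and 155 CPM in Ni_3D 1, against at most 4.60 CPM in the other libraries. ESR1 was at 0 reads in the other 18. Without that pair of libraries no member was called either. Library totals ran from 8609243 reads (Control_3D 4) to 88848786 reads (Ni_3D 2), a 10.3-fold range, so the low genes are least precise in Control_3D 4. These are bulk libraries, in which fewer cells of a kind and less RNA per cell cannot be told apart.

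In the Hippo pathway, a kinase cascade of MST and LATS kinases phosphorylates YAP1 and WWTR1 and keeps them in the cytoplasm, where they are held or degraded. When the cascade is low, for example in spread cells on a stiff surface, both enter the nucleus and bind TEAD factors on enhancers and promoters of genes for matrix, cytoskeleton and growth. The pathway is regulated mostly at the protein level, so the mRNA of YAP1 or TEAD1 does not report its activity, and the mRNA of targets such as CTGF, CYR61 and ANKRD1 is commonly read as its output.

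In hg19, the build of the deposited files, CTGF lies on chromosome 6 at 132269317 to 132272518, CYR61 on chromosome 1 at 86046444 to 86049648 and ANKRD1 on chromosome 10 at 92671857 to 92681032. TEAD4 lies on chromosome 12 at 3068748 to 3149842 and AMOTL2 on chromosome 3 at 134074187 to 134094259. TEAD factors bind the letters GGAATG, which a search of both strands also meets reversed and complemented, as CATTCC. The 250 bases before the transcription start were searched for them on both strands in the RefSeq promoter table (GRCh38.p14, a newer build than the hg19 of the deposited files). The table held 7 of the 10 members, with 10 starts, of which 5 had a match. Over all 35116 starts in the table, 11.9% had 1 match or more, 0.94% had 2 or more and 0.0826% had 3 or more. 3 windows are shown because they hold the most matches (CTGF and ANKRD1) or belong to the member with the largest change relative to its error among the inhibitors (AMOTL2). Capitals mark the matches, and each sequence reads 5′ to 3′ on the strand of its gene, which is the minus strand in all 3.
CTGF, chr6:131951373-131951622: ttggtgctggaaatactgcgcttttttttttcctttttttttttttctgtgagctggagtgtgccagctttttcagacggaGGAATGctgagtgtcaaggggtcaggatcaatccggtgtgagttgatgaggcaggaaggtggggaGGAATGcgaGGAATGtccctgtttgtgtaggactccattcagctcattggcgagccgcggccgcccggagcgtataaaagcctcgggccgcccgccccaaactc
ANKRD1, chr10:90921088-90921337: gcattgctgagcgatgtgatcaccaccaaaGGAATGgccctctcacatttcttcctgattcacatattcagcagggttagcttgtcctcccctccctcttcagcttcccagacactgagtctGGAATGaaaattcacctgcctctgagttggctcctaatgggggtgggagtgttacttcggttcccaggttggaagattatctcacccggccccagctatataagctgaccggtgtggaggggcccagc
AMOTL2, second of 2 starts, chr3:134374448-134374697: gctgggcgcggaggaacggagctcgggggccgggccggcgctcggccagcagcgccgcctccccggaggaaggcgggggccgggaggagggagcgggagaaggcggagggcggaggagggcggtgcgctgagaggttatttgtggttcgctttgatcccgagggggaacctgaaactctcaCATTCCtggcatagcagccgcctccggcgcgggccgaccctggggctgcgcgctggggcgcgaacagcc
The CTGF window held 3 matches, beginning 169, 104 and 95 bases before the start, and the last 2 are separated by 3 bases. The ANKRD1 window held 2, at 220 and 128 bases. AMOTL2 had 1 at 69 bases before its second start, YAP1 had 1 at 162 bases and AXL had 1 at 212 bases before its second start. The windows of WWTR1 and AMOTL1, and the first starts of AXL and AMOTL2, did not hold these letters. A match describes the sequence and is not a measured binding site.

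Levels of different genes were compared only per transcript length, in the deposited RPKM (reads scaled to gene length and library size). CYR61, a secreted matrix protein of the CCN family, was the highest of the 10 in all 20 libraries, with a median of 475 RPKM (range 170 to 1109). AXL, a receptor tyrosine kinase, had a median of 200 RPKM and AMOTL2 one of 79.5 RPKM. CTGF, the CCN family member linked to fibrosis, had a median of 65.6 RPKM but ranged from 12.9 to 442 RPKM, and its rank among the 10 moved between 2 and 8. The factors themselves were lower and steadier. TEAD4 had a median of 50.2 RPKM, YAP1 28.4, TEAD1 25.3 and WWTR1 13.2. AMOTL1 (6.69 RPKM) and ANKRD1, a stretch-responsive ankyrin repeat protein (4.54 RPKM), were the lowest. All further levels are CPM after TMM scaling and compare 1 gene between libraries.

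**Figure D1:**
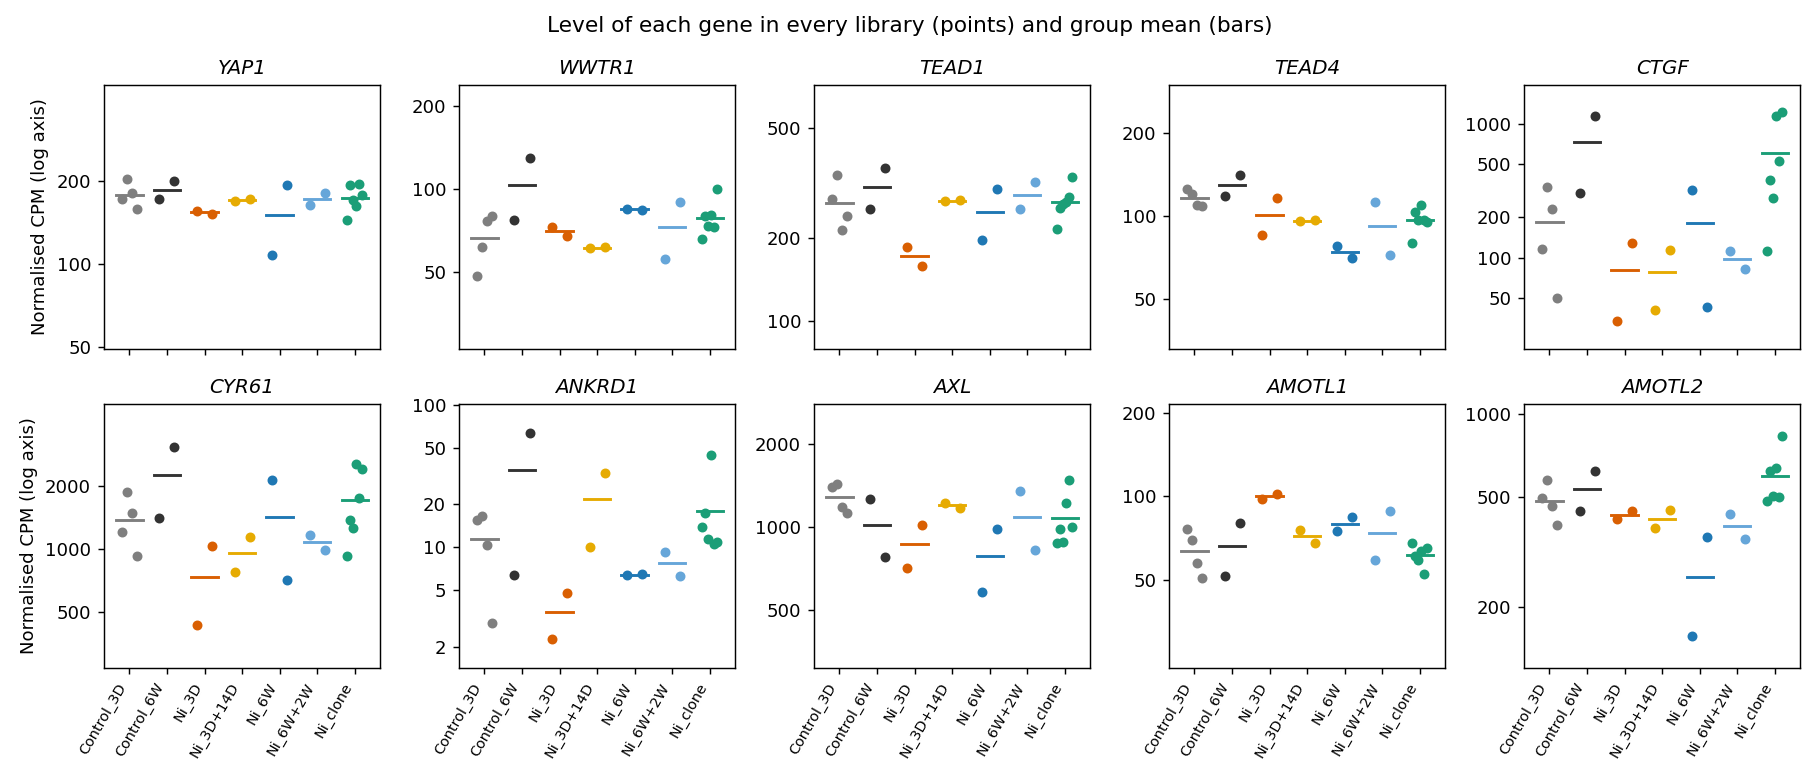
Level of each gene in every library, in normalised CPM on a log axis, by group. Points are single libraries and bars are group means. CTGF, CYR61 and ANKRD1 scatter widely inside groups, YAP1 and TEAD4 little. In TEAD4 11 of the 14 nickel libraries lie below every control, and 2.85% of genes have 11 or more below.

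The spread between libraries of 1 group differed strongly among the members. The SD of log2 CPM within groups was 1.30 for CTGF, larger than that of 97.2% of the 14899 genes compared. It was 1.06 for ANKRD1 (larger than 94.8% of genes) and 0.63 for CYR61 (82.0%). The median gene had 0.31. YAP1 (0.21) and TEAD4 (0.20) were steadier than most genes, with a smaller SD than theirs in 22.1% and 16.8% of genes. Across all 20 libraries CTGF spanned 36.8-fold, ANKRD1 27.9-fold and CYR61 7.23-fold, whereas YAP1 spanned 1.89-fold. The plot of spread by gene shows that the 3 targets also led among the 6 clones, where the SD was 1.30 for CTGF and 0.78 for ANKRD1 against 0.24 for the median gene.

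**Figure D2:**
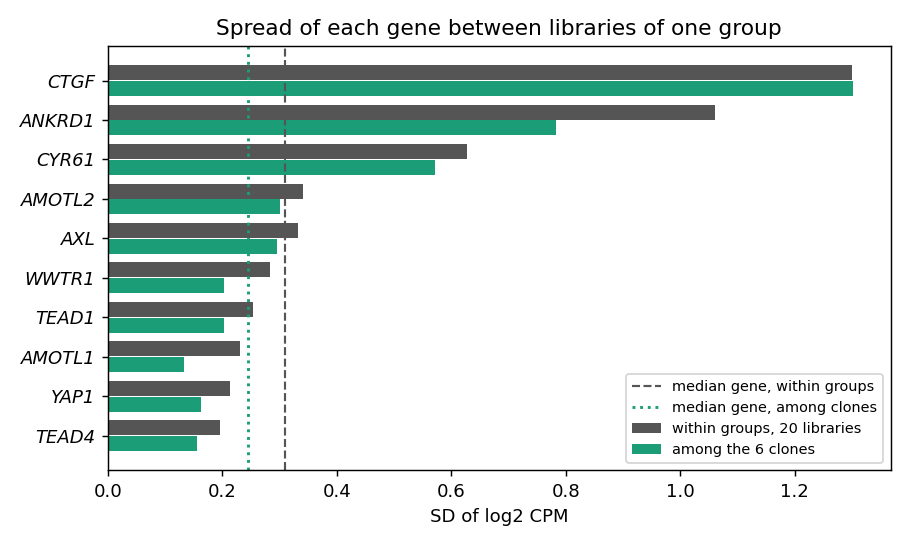
SD of log2 CPM for each gene within groups over all 20 libraries (dark bars) and among the 6 clones (green bars), with the median gene as dashed and dotted lines. CTGF (1.30 in both), ANKRD1 and CYR61 exceed the median gene (0.31 within groups), and TEAD4 is lowest within groups at 0.20.

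The coactivators showed no called change. YAP1 stood at 172, 204, 180 and 158 CPM in Control_3D and at 156 and 151 CPM in Ni_3D. It stood at 172 and 199 CPM in Control_6W, at 108 and 193 CPM in Ni_6W and at 163 and 180 CPM in Ni_6W+2W. The 2 Ni_3D libraries lay just below all 4 controls, and the low value of 108 CPM came from 1 of the 2 Ni_6W libraries. In Ni_6W against Control_6W the log2 fold change of YAP1 was -0.31 (SE 0.23, edgeR adjusted p = 0.419), with a 95% interval from -0.81 to 0.20. That estimate depended on single libraries: it was -0.80 (adjusted p = 0.0212) without Ni_6W 2 and 0.05 (adjusted p = 0.930) without Ni_6W 1. YAP1 stood at 168 and 171 CPM in Ni_3D+14D and at 144 to 194 CPM in the clones (median 174), which overlap both control groups.

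WWTR1, the paralogue of YAP1, stood at 48.7, 61.7, 76.8 and 80.2 CPM in Control_3D and at 73.2 and 67.9 CPM in Ni_3D. It stood at 77.6 and 130 CPM in Control_6W, at 84.7 and 84.1 CPM in Ni_6W and at 55.9 and 90.2 CPM in Ni_6W+2W. Nickel and control libraries overlapped in each of these comparisons. Between the unexposed groups, Control_6W was above Control_3D by 0.62 on the log2 scale (SE 0.25, edgeR adjusted p = 0.580). WWTR1 was 61.2 and 61.7 CPM in Ni_3D+14D and 66.2 to 100.0 CPM in the clones (median 76.8).

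Of the DNA-binding partners, TEAD1 stood at 276, 340, 215 and 240 CPM in Control_3D and at 185 and 159 CPM in Ni_3D. Both exposed libraries lay below all 4 controls. The log2 fold change was -0.62 (SE 0.24, 95% interval -1.13 to -0.12), with an unadjusted p of 0.0196 and an adjusted p of 0.127 by edgeR's quasi-likelihood test. In Ni_3D+14D the level was 272 and 274 CPM, inside the range of the same controls. The difference from Ni_3D was 0.65 on the log2 scale (SE 0.27, edgeR adjusted p = 0.337). TEAD1 stood at 255 and 359 CPM in Control_6W, 196 and 302 CPM in Ni_6W, 255 and 318 CPM in Ni_6W+2W, and 216 to 334 CPM in the clones (median 268), all overlapping.

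TEAD4 was lower in most nickel libraries than in any control. It stood at 125, 120, 109 and 108 CPM in Control_3D and at 118 and 140 CPM in Control_6W. It stood at 85.4 and 116 CPM in Ni_3D, 95.5 and 96.6 CPM in Ni_3D+14D, 77.9 and 70.1 CPM in Ni_6W, and 112 and 71.9 CPM in Ni_6W+2W. The clones ran from 79.6 to 110 CPM (median 96.6). In all, 11 of the 14 nickel libraries lay below every one of the 6 controls. Of the 14899 genes, 2.85% had 11 or more below all controls. That share counts only this direction, and the share in either direction was not computed. The pattern was picked out after the values were seen and sets clones and 3-day cells beside each other, so it is a description.

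In Ni_6W against Control_6W the log2 fold change of TEAD4 was -0.80 (SE 0.23, 95% interval -1.30 to -0.31). Its adjusted p was 0.0692 by edgeR, above the threshold of 0.05, and 0.0159 by DESeq2. In the clones against Control_6W it was -0.40 (SE 0.13, 95% interval -0.69 to -0.10, edgeR adjusted p = 0.101), and all 6 clones lay below both controls. These comparisons share the Control_6W libraries and are not independent. By group mean the order was Control_6W (129 CPM), Control_3D (116), Ni_3D (101), Ni_clone (96.7), Ni_3D+14D (96.1), Ni_6W+2W (92.0) and Ni_6W (74.0). Each neighbouring pair of groups in that order overlapped.

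Of the members, the targets CTGF and ANKRD1 had the widest errors and, outside the clones, the largest estimates against controls. CTGF stood at 117, 336, 230 and 50.1 CPM in Control_3D and at 33.3 and 128 CPM in Ni_3D. It stood at 306 and 1150 CPM in Control_6W, at 318 and 43.0 CPM in Ni_6W and at 112 and 81.8 CPM in Ni_6W+2W. The 2 Ni_6W libraries lay apart, 1 above the lower control and the other below both, and of these nickel groups only Ni_6W+2W lay below all of its controls.

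The log2 fold change of CTGF was -1.998 in Ni_6W (SE 1.10, edgeR adjusted p = 0.273) and -2.90 in Ni_6W+2W (SE 1.14, 95% interval -5.42 to -0.38, adjusted p = 0.321). Control_6W 2 carried much of both. Without it the values were -0.78 and -1.66. In Ni_3D it was -1.17 (SE 0.97, adjusted p = 0.491), and in Ni_3D+14D, at 40.4 and 114 CPM, -1.24 (SE 0.98, adjusted p = 0.979). Control_6W itself lay above Control_3D by 1.97 (SE 0.88, edgeR adjusted p = 0.592), although the 2 control groups overlapped.

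In the clones CTGF ranged from 112 to 1226 CPM, with a median of 455 CPM. Against Control_6W the log2 fold change was -0.23 (SE 0.81, edgeR adjusted p = 0.889), and without Control_6W 2 it changed sign to 0.998. Against Ni_6W+2W, washed but not cloned, it was 2.65 (SE 0.89, adjusted p = 0.706), and all 6 clones lay above both washed libraries, the lowest clone by a margin of under 1 CPM. By group mean the order was Control_6W (728 CPM), Ni_clone (612), Control_3D (183), Ni_6W (181), Ni_6W+2W (97.0), Ni_3D (80.8) and Ni_3D+14D (77.4), and each neighbouring pair overlapped.

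CYR61 stood at 1208, 1888, 1495 and 923 CPM in Control_3D and at 429 and 1031 CPM in Ni_3D. It stood at 1412 and 3104 CPM in Control_6W, at 2141 and 706 CPM in Ni_6W and at 1169 and 988 CPM in Ni_6W+2W. As with CTGF, 1 Ni_6W library was high and the other low, and Ni_6W+2W lay below both controls. The log2 fold change was -0.90 in Ni_3D (SE 0.49, edgeR adjusted p = 0.280), -0.66 in Ni_6W (SE 0.55, adjusted p = 0.463) and -1.06 in Ni_6W+2W (SE 0.55, adjusted p = 0.432). In Ni_3D+14D, at 778 and 1137 CPM, it was -0.52 (SE 0.48). The clones ran from 924 to 2570 CPM (median 1567), with a log2 fold change of -0.37 against Control_6W (SE 0.40, edgeR adjusted p = 0.594) that became 0.29 without Control_6W 2. Without the same library the value in Ni_6W was -0.01 and in Ni_6W+2W -0.39.

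CTGF and CYR61 followed each other closely over the 20 libraries. Pearson's r of their log2 CPM was 0.938 and Spearman's rho 0.946, each with a permutation p of 1e-05, the smallest that 100000 resamples can give, and 9e-05 after adjustment over the 9 relations of CTGF with the other members. Without the 2 libraries farthest from the median of CTGF (Ni_clone 6 and Control_6W 2) r was 0.917. Within the 6 controls it was 0.967, within the 8 nickel libraries that are not clones 0.946, and within the 6 clones 0.990. The libraries differ in depth and the clones may share a parent population, so the points cannot be taken as fully independent. CTGF and ANKRD1 gave r = 0.631 and rho = 0.591 (adjusted permutation p = 0.013 and 0.021), with r = 0.597 without the same 2 libraries. Within the 6 controls r was 0.839. It was only 0.274 within the 8 nickel libraries that are not clones and 0.343 within the 6 clones, where rho was -0.143.

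**Figure D3:**
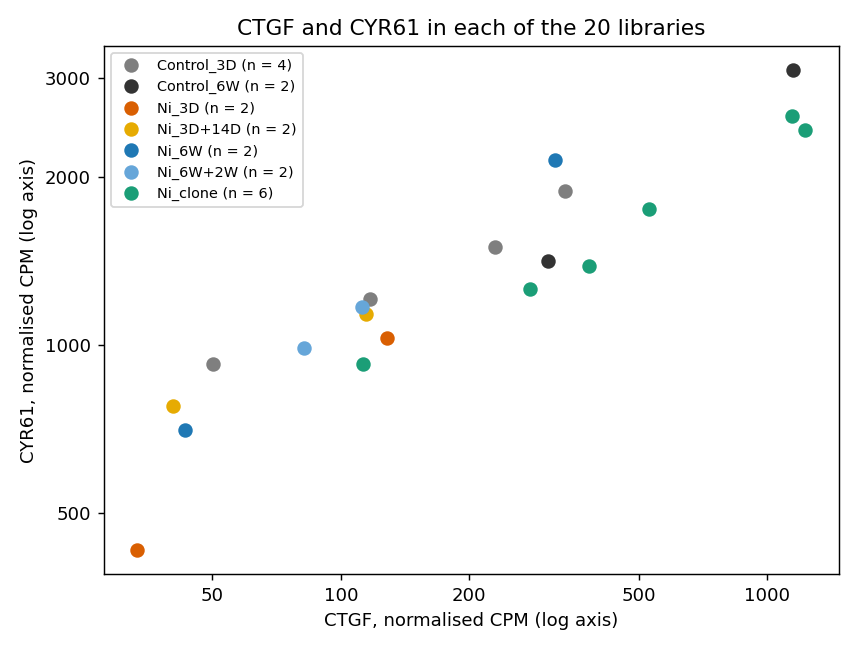
CTGF against CYR61 in each of the 20 libraries, in normalised CPM on log axes, coloured by group. The points follow 1 line in all groups (r = 0.938), from Ni_3D 1 at 33.3 CPM of CTGF to Ni_clone 6 at 1226 CPM.

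The relation with AMOTL2, also a target of YAP1, was negative by Pearson's r in 1 set of libraries. Over all 20, rho was 0.768 (adjusted permutation p = 0.00063) and r was 0.478 (0.08), or 0.297 without the 2 farthest libraries. Within the 6 controls r was 0.827 and within the 6 clones 0.776, but within the 8 nickel libraries that are not clones it was -0.587. Of those 8, Ni_6W 1 had both the highest CTGF (318 CPM) and the lowest AMOTL2 (156 CPM). In the others CTGF ran from 33.3 to 128 CPM and AMOTL2 from 352 to 447 CPM. The negative sign, and with it the difference between sets, may therefore rest on Ni_6W 1. The value of r without it was not computed. The other 6 relations, including those with YAP1, TEAD1 and TEAD4, had adjusted permutation p-values of 0.08 or more. Among the 10958 other genes that averaged 5 CPM or more, CYR61 was the gene most like CTGF over the 20 libraries, followed by SGK1 (r = 0.904), a serum- and glucocorticoid-induced kinase, and IER2 (r = 0.899), an immediate early gene. After CTGF, those most like CYR61 were ATP1B3 (r = 0.872) and ADAMTS1 (r = 0.843). YAP1 was most like LBR (r = 0.925), ZNF268 (0.921) and SLFN12 (0.910), and CTGF stood at rank 4335 for it with r = 0.185.

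ANKRD1 stood at 15.6, 16.6, 10.4 and 2.94 CPM in Control_3D and at 2.27 and 4.74 CPM in Ni_3D. It stood at 6.397 and 63.3 CPM in Control_6W, at 6.36 and 6.45 CPM in Ni_6W and at 9.28 and 6.28 CPM in Ni_6W+2W. The high Control_6W 2 library alone set Control_6W apart. The log2 fold change was -1.70 in Ni_3D (SE 0.86, edgeR adjusted p = 0.252), -2.44 in Ni_6W (SE 0.97, adjusted p = 0.139) and -2.15 in Ni_6W+2W (SE 0.95, adjusted p = 0.368). Without Control_6W 2 the 6-week values were -0.01 and 0.28. In Ni_3D+14D, at 10.03 and 33.4 CPM, it was 0.92 against Control_3D (SE 0.77, edgeR adjusted p = 0.979), and 2.61 against Ni_3D (SE 0.97, adjusted p = 0.302), where both libraries lay above both others. Without Ni_3D+14D 2 the first of these was -0.20.

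In the clones ANKRD1 ran from 10.6 to 44.2 CPM (median 12.7), with a log2 fold change of -0.91 against Control_6W (SE 0.75, edgeR adjusted p = 0.483) that turned to 1.51 without Control_6W 2. The genes most like it were RND3 (r = 0.835), AKAP2 (0.772) and DLC1 (0.765).

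AXL stood at 1396, 1433, 1179 and 1122 CPM in Control_3D and at 711 and 1018 CPM in Ni_3D, both below all 4 controls. It stood at 1220 and 1173 CPM in Ni_3D+14D, at 1259 and 779 CPM in Control_6W, at 582 and 982 CPM in Ni_6W and at 1350 and 823 CPM in Ni_6W+2W. The clones ran from 875 to 1477 CPM (median 995). No comparison of AXL had an unadjusted p under 0.05 in the edgeR fit of the groups that are not clones, or in the separate clone fits. In Ni_3D the unadjusted p was 0.0703 in the first of these, 0.0474 by DESeq2 and 0.0267 by edgeR with only the groups compared. The adjusted p-values were 0.247, 0.184 and 0.132. The nickel libraries overlapped their controls outside Ni_3D. The genes most like it were PSMC5 (r = 0.882), RAB8A (0.871) and PYGL (0.870). The correlation of AXL with CTGF was 0.060.

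The angiomotin-like proteins bind YAP1 and hold it at cell junctions and actin. AMOTL1 stood at 76.2, 69.5, 57.7 and 50.8 CPM in Control_3D and at 98.2 and 102 CPM in Ni_3D, both above all 4 controls. The log2 fold change was 0.67 (SE 0.22, 95% interval 0.19 to 1.14), with an unadjusted p of 0.00989 and an adjusted p of 0.0916 by edgeR. In Ni_3D+14D it was 75.3 and 68.0 CPM, inside the controls' range. It stood at 51.6 and 80.2 CPM in Control_6W, 74.9 and 84.4 CPM in Ni_6W, 58.9 and 88.3 CPM in Ni_6W+2W and 52.2 to 67.9 CPM in the clones (median 62.2).

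AMOTL2 stood at 445 and 621 CPM in Control_6W and at 156 and 358 CPM in Ni_6W, both below the controls. The log2 fold change was -1.06 (SE 0.32, 95% interval -1.75 to -0.37), with an adjusted p of 0.0767 by edgeR and 0.0207 by DESeq2. Ni_6W 1 weighed most: without Ni_6W 2 the value was -1.79 (edgeR adjusted p = 0.00449), and without Ni_6W 1 it was -0.58. In Ni_6W+2W the level was 433 and 352 CPM, higher than Ni_6W by 0.62 on the log2 scale (edgeR adjusted p = 0.733, or 1.35 with adjusted p = 0.0200 without Ni_6W 2). It stood at 494, 577, 463 and 397 CPM in Control_3D, 415 and 445 CPM in Ni_3D and 385 and 447 CPM in Ni_3D+14D.

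The change of AMOTL2 at 6 weeks differed from that at 3 days by -0.90 (SE 0.42, edgeR adjusted p = 0.457), or by -1.61 (adjusted p = 0.0342) without Ni_6W 2. In the clones AMOTL2 ran from 484 to 833 CPM (median 563), inside or above the range of Control_6W, and was higher than in Ni_6W+2W by 0.60 (SE 0.22, edgeR adjusted p = 0.709), with no overlap.

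**Figure D4:**
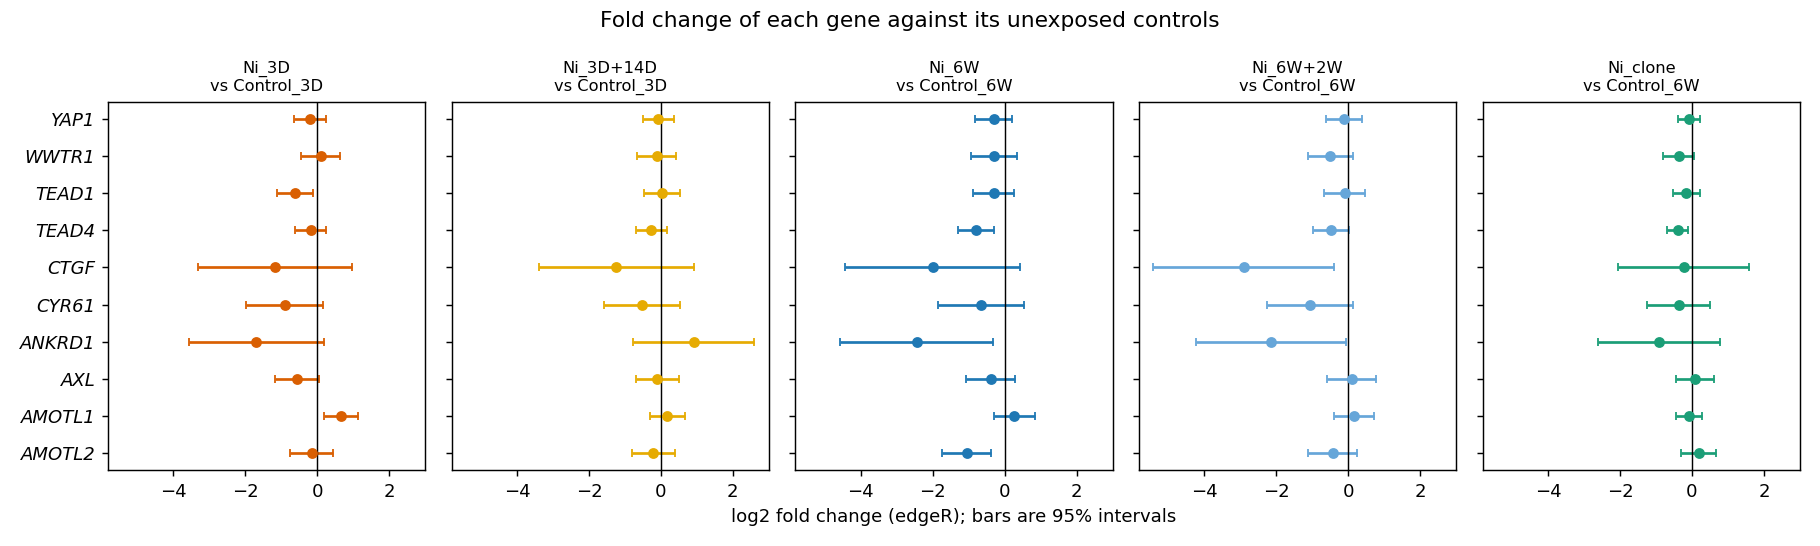
log2 fold change of each gene against its unexposed controls in the 5 nickel groups, from edgeR, with 95% intervals as bars. The intervals of CTGF and ANKRD1 are the widest, and the points left of 0 that come nearest to the threshold are TEAD4 (-0.80) and AMOTL2 (-1.06) in Ni_6W.

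Counted over the 10 genes, each comparison is set here beside the share of all genes tested. In Ni_3D against Control_3D edgeR called 0 of 10 members and 4.33% of all genes. At an unadjusted p under 0.05 stood 2 of 10 members (AMOTL1 and TEAD1) and 24.3% of all genes, and DESeq2 called 0 members and 12.6% of all genes. Of the 10, 1 lay above and 3 below all controls, where 38.6% of all genes did not overlap. The median log2 fold change was -0.38 over the members and 0.03 over all genes. The members' counts were thus near or below the background.

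In Ni_3D+14D against Control_3D edgeR called 0 members and 0.0% of all genes. None of the 10 stood at an unadjusted p under 0.05, where 4.11% of all genes did, and DESeq2 called 0 members and 0.099% of all genes. TEAD4 was the 1 of 10 that did not overlap its controls, where 22.0% of all genes did not. The median was -0.11 over the members.

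In Ni_6W against Control_6W edgeR called 0 members and 2.47% of all genes. TEAD4, AMOTL2 and ANKRD1 (3 of 10) and 26.6% of all genes had an unadjusted p under 0.05, and DESeq2 called 2 of 10 and 14.5% of all genes. TEAD4 and AMOTL2 were the 2 of 10 that did not overlap their controls, where 47.0% of all genes did not. Estimates below 0 were found for 9 of 10 members and 47.7% of all genes, with medians of -0.52 and 0.03. Between the unexposed groups, Control_6W against Control_3D, 9 of 10 members were above 0. There 53.6% of all genes were below 0, and the median over the members was 0.16. Both comparisons use the same Control_6W libraries. In Ni_6W the counts of calls among the members were near the background.

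In Ni_6W+2W against Control_6W, which uses the same controls, edgeR called 0 members and 0.0% of all genes. CTGF and ANKRD1 (2 of 10) and 13.1% of all genes had an unadjusted p under 0.05, and DESeq2 called 0 members and 2.23% of all genes. Of the 10, 4 lay below both controls, where 44.1% of all genes did not overlap, and the median was -0.46 over the members.

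In Ni_clone against Control_6W edgeR called 0 members and 5.26% of all genes. At an unadjusted p under 0.05 stood 1 of 10 (TEAD4) and 25.2% of all genes, and DESeq2 called 0 members and 13.3% of all genes. TEAD4 alone did not overlap, where 24.2% of all genes did not. In Ni_clone against Ni_6W+2W edgeR called 0 members and 0.028% of all genes. At an unadjusted p under 0.05 stood 2 of 10 (CTGF and AMOTL2) and 6.61% of all genes, and DESeq2 called 0 members and 0.422% of all genes. CTGF, ANKRD1 and AMOTL2, 3 of 10, lay above both washed libraries, where 8.63% of all genes did not overlap in either direction.

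In Ni_3D+14D against Ni_3D edgeR called 0 members and 0.255% of all genes. ANKRD1 and TEAD1 (2 of 10) and 12.6% of all genes had an unadjusted p under 0.05, and DESeq2 called 0 members and 3.1% of all genes. Of the 10, 6 did not overlap, where 54.4% of all genes did not. In Ni_6W+2W against Ni_6W edgeR called 0 members and 0.0% of all genes, with 0 members and 6.59% of all genes at an unadjusted p under 0.05 and 0 members and 0.0325% of all genes called by DESeq2. All 10 overlapped there, where 25.9% of all genes did not.

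Between the unexposed groups, Control_6W against Control_3D, edgeR called 0 members and 0.0% of all genes, and DESeq2 0 members and 0.351%. WWTR1 and CTGF (2 of 10) and 8.31% of all genes had an unadjusted p under 0.05, and all 10 overlapped, where 16.4% of all genes did not. For the difference between the 6-week and the 3-day effect, edgeR called 0 members and 0.0% of all genes, and DESeq2 0 members and 1.36%. At an unadjusted p under 0.05 stood 1 of 10 (AMOTL2) and 10.9% of all genes. The counts over all genes rested on single libraries: the 368 calls behind the 2.47% in Ni_6W became 0 without Ni_6W 1 or Control_6W 2 and 2871 without Ni_6W 2. The 746 calls in the clones against Control_6W became 6 without Control_6W 2, and the 647 calls in Ni_3D became 65 without Ni_3D 2.

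Other genes of the pathway were read from lists of published components. Of 8 genes of the Hippo kinase core, 1 fell and 7 were not called by edgeR in Ni_3D, where 4.33% of all genes were called. There 5 of 8 had an unadjusted p under 0.05 and 2 were called by DESeq2, against 24.3% and 12.6% of all genes. None of the 8 was called by edgeR or DESeq2 in the other 9 comparisons (0.0% to 5.26% and 0.0325% to 14.5% of all genes). At an unadjusted p under 0.05 stood 4 of 8 in Ni_6W (26.6% of all genes). The count was 1 in Ni_3D+14D (4.11%), Ni_6W+2W (13.1%), Ni_3D+14D against Ni_3D (12.6%) and the clones against Ni_6W+2W (6.61%). It was 0 in the rest, against 6.59% to 25.2% of all genes. STK3 (MST2), an upstream kinase of the cascade, stood at 27.4, 34.3, 34.2 and 26.6 CPM in Control_3D and at 17.1 and 11.7 CPM in Ni_3D, both below all controls. Its log2 fold change was -1.08 (SE 0.23, edgeR adjusted p = 0.0287), and the call was lost in 4 of the 6 fits that leave out 1 library. It was also lost without the pair Control_3D 1 and Ni_3D 1, which hold the oestrogen-responsive transcripts (adjusted p = 0.0701), and in 7 of the 14 alternatives in all. The median over the 8 genes was -0.51 in Ni_3D, against 0.03 for all genes.

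Of 19 upstream regulators, 1 rose, 1 fell and 17 were not called by edgeR in Ni_3D. There 4 of 19 had an unadjusted p under 0.05 and 4 were called by DESeq2, against the same 24.3% and 12.6% of all genes. WWC2, a scaffold of the KIBRA family that promotes LATS activity, stood at 126, 139, 111 and 115 CPM in Control_3D and at 74.3 and 65.2 CPM in Ni_3D, with a log2 fold change of -0.80 (SE 0.17, edgeR adjusted p = 0.0258). RASSF1, a scaffold that binds the MST kinases, stood at 70.5, 61.9, 55.9 and 58.4 CPM in Control_3D and at 107 and 154 CPM in Ni_3D, with 1.09 (SE 0.28, edgeR adjusted p = 0.0437). Both sets of libraries were separate. The call was lost in 3 of 6 such fits for WWC2 and in 6 of 6 for RASSF1. Without the pair Control_3D 1 and Ni_3D 1 the adjusted p was 0.115 and 0.0977, and 7 and 10 of the 14 alternatives lost the call.

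WTIP, a LIM protein that binds LATS kinases, was the 1 regulator called by edgeR in the clones against Control_6W, where 4 of 19 had an unadjusted p under 0.05 and 2 were called by DESeq2 (25.2% and 13.3% of all genes). It stood at 69.1 and 132 CPM in Control_6W and at 40.5 to 58.7 CPM in the clones, with a log2 fold change of -0.94 (SE 0.21, edgeR adjusted p = 0.0368), and the call was lost in 6 of 8 fits that leave out 1 library. In the other 8 comparisons edgeR called none of the 19. At an unadjusted p under 0.05 stood 4 in Ni_3D+14D against Ni_3D (12.6% of all genes), 3 in Ni_6W (26.6%) and 3 in the difference of effects (10.9%). Ni_6W+2W had 2 against Control_6W (13.1%) and 2 against Ni_6W (6.59%). Ni_3D+14D had 1 (4.11%), the clones 1 against Ni_6W+2W (6.61%) and Control_6W against Control_3D 0 (8.31%). DESeq2 called 2 in Ni_6W (14.5%), 1 in Ni_3D+14D against Ni_3D (3.1%) and 0 in the rest. Of 6 further TEAD and VGLL cofactors 5 could be tested, since VGLL1 had 0 reads in all libraries. None of the 5 was called by edgeR in any comparison (0.0% to 5.26% of all genes). At an unadjusted p under 0.05 stood 1 in Ni_6W (26.6%), 1 in Control_6W against Control_3D (8.31%) and 0 in the rest (4.11% to 25.2%). DESeq2 called 1 in Ni_6W (14.5%) and 0 in the rest (0.0325% to 13.3%).

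Of 17 other published targets of YAP1 and WWTR1, 1 fell and 16 were not called by edgeR in Ni_6W against Control_6W, where 2.47% of all genes were called. There 5 of 17 had an unadjusted p under 0.05 and 3 were called by DESeq2, against 26.6% and 14.5% of all genes. None of the 17 was called by edgeR in the other 9 comparisons. At an unadjusted p under 0.05 stood 5 in Ni_3D (24.3% of all genes), 5 in Ni_6W+2W (13.1%) and 5 in the difference of effects (10.9%). The clones had 4 against Control_6W (25.2%) and 2 against Ni_6W+2W (6.61%). Ni_3D+14D had 3 against Ni_3D (12.6%) and 0 against Control_3D (4.11%). Control_6W against Control_3D had 2 (8.31%) and Ni_6W+2W against Ni_6W 1 (6.59%). DESeq2 called 3 in Ni_3D (12.6%), 2 and 1 in the clones (13.3% and 0.422%), 1 in Ni_3D+14D against Ni_3D (3.1%) and 0 elsewhere. FJX1, a secreted kinase-like protein of the planar polarity pathway, stood at 126 and 174 CPM in Control_6W and at 18.6 and 37.7 CPM in Ni_6W. Its log2 fold change was -2.42 (SE 0.54, edgeR adjusted p = 0.0497), and the call was lost in 2 of 4 fits that leave out 1 library. It was also lost with no low-count filter, and so in 3 of the 9 alternatives in all. FJX1 stood at 103 and 30.9 CPM in Ni_6W+2W, both below the controls, and the lower library lay within the Ni_6W range. The median of the 17 was -0.32 in Ni_6W and -0.24 in Ni_3D, each against 0.03 for all genes. LATS2 and PTPN14 stand in 2 of these lists.

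Markers of cell state moved with some of these comparisons, and their part in the results was not tested. The sum of 7 airway epithelial markers was 328 to 633 CPM in Ni_6W and 888 to 896 CPM in Control_6W, beside the lower TEAD4 and AMOTL2 there. Of the 7, TP63 and KRT5 were under 1 CPM in both groups. KRT8 (187 to 831 CPM over all libraries) and KRT18 (135 to 386 CPM) made up most of the sum. The sum of 6 fibroblast markers was 575 to 1536 CPM in Ni_3D and 2035 to 4571 CPM in Control_3D, beside the lower STK3, WWC2 and TEAD1. Of the 6, DCN, PDGFRA and LUM were at or near 0. COL1A1 (529 to 6800 CPM over all libraries) made up most of the sum, which therefore describes mainly 1 collagen gene. Of 6 mesenchymal markers the sum was 3049 to 3085 CPM in Ni_6W and 2066 to 2752 CPM in Control_6W, beside the lower TEAD4, AMOTL2 and FJX1. At 3 days it was 3689 to 5125 CPM in Ni_3D and 2719 to 6267 CPM in Control_3D, which overlap. VIM (1532 to 4241 CPM over all libraries) and FN1 (103 to 3172 CPM) made up most of these mesenchymal sums. ZEB1 reached at most 18.2 CPM and SNAI2 at most 12.1 CPM, so the sums describe mainly VIM and FN1. PTPRC, CD3E and PECAM1, which define leukocytes, T cells and endothelium, were under 1 CPM in all 20 libraries. The 4 immune markers summed to 42.1 to 117 CPM in Ni_6W and 45.9 to 75.7 CPM in Control_6W. Nearly all of that came from CD14 (5.63 to 34.2 CPM over all libraries) and CD68 (22.4 to 82.4 CPM), both present in every library and highest in Ni_6W 1.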

How the data were processed

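The deposited files of the 20 libraries, read per the file headers, hold raw read counts and the authors' RPKM for 25411 genes. The submitters' processing notes name STAR 2.4, DESeq, DESeq2 and hg19, without their roles. How reads were counted, and whether by strand, is not given in those sources. In 2 libraries 28 symbols had been changed as by a spreadsheet, and rows were joined by RefSeq ID. The authors' comparison tables were not used.

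Counts were tested with edgeR 4.0.16 in R 4.3.3 (limma 3.58.1): TMM scaling, filterByExpr (minimum count 10, total 15), the robust quasi-likelihood F test, Benjamini-Hochberg adjustment over all genes and a threshold of 0.05. A single fit held the 14 libraries of the other 6 groups (14927 genes, 8 residual degrees of freedom), and the clones were fitted with Control_6W (14172 genes) or Ni_6W+2W (14273 genes) alone. Standard errors are the fold change over the root of F, and 95% intervals use the t distribution. DESeq2 1.42.0 was an alternative. The code was tested on simulated data. Levels are CPM, and log2 CPM had a prior count of 2. Totals were 8609243 to 88848786 reads.

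The 10 genes and all lists were chosen with earlier results of these data known. Named genes are the 10, up to 4 called genes per list and comparison, and the 3 genes most like YAP1, CTGF, CYR61, ANKRD1 and AXL. The 9 relations of CTGF and the count of nickel libraries below all controls were added after the data were seen. Same-numbered libraries of different groups are not stated to be paired.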

Additional observations from a re-analysis of the deposited data

Results flagged for a closer look

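The 10 genes and the 5 other genes named with a test were examined in the 2 groups of at least 4 libraries, Control_3D and the clones. Among these 30 pairs of a gene and a group, 1 library stood far from the rest of its group. ANKRD1 was at 44.2 CPM in clone 4, and the next clone was at 17.5 CPM. The gap was 0.794 of the range of the 6 clones, above Dixon's 95% critical value for 6 values. Chance gives a gap above the 95% critical value in about 1 in 20 groups. A count of 1 such gap among 30 pairs is therefore no more than chance would give. How often chance gives a gap as large as 0.794 was not computed, so the count does not settle whether this single gap is chance.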

How the results depend on the processing

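Fold changes were computed for 10 genes in 10 comparisons under other settings listed at the outset, 1180 values in all. Of these 98, in 56 of the 100 fold changes, had the opposite sign, and 6 were newly called. Of the 50 fold changes drawn against controls, 26 changed sign at least once. After those values were seen, only the 29 fold changes the text gives were kept for single listing, and 6 of these changed sign. Over libraries left out in turn, ANKRD1 ran from -0.20 to 1.54 (Ni_3D+14D), -3.01 to 0.28 (Ni_6W+2W) and -1.78 to 1.51 (clones against Control_6W), YAP1 from -0.80 to 0.047 (Ni_6W), and CTGF from -0.89 to 0.998 and CYR61 from -0.83 to 0.29 (clones against Control_6W). Members called ran from 0 to 2 in Ni_6W, and from 0 to 1 in Ni_6W+2W against Ni_6W and in the difference of the 6-week and 3-day effects, and DESeq2 called 2 in Ni_6W. In the other 7 comparisons they were 0 under every alternative run.

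Counts of all genes called moved far more. In Ni_3D the 647 became 1886 by DESeq2, 92 with the replicate number as a block, 1174 without Control_3D 1 and 2, 121 without Control_3D 3 and 4, 75 without the pair Control_3D 1 and Ni_3D 1, and 65 to 653 over libraries left out. In Ni_3D+14D the 0 became 16 by DESeq2 and 112 without Control_3D 1 and 2. In Ni_6W the 368 became 2098 by DESeq2, 111 with only the groups compared, 761 with the block and 0 to 2871 over libraries left out. In Ni_6W+2W the 0 became 323, 39, 128 and 0 to 117 in the same order. In Ni_3D+14D against Ni_3D the 38 became 450 by DESeq2, 59 with no low-count filter, 243 with only the groups compared, 16 without that pair and 0 to 34 over libraries left out. In Ni_6W+2W against Ni_6W the 0 became 7 by DESeq2 and 0 to 1150. In Control_6W against Control_3D the 0 became 48 by DESeq2, 1 with no filter, 1 with only the groups compared, 281 with the block, 301 without Control_3D 3 and 4 and 0 to 134. For the difference of effects the 0 became 197, 10 with no filter, 70 with the block, 101 without Control_3D 3 and 4, 1 without the pair and 0 to 302. The clones gave 2002 by DESeq2 and 6 to 1504 against Control_6W, and 64, 7 with no filter and 2 to 6 against Ni_6W+2W. The cause was not tested. Deviations of same-numbered libraries from their group means had correlations of -0.35 to 0.35 (11 of 30 over 0.1). In a group of 2 the deviations mirror each other, so many of these values repeat and cannot settle whether libraries were paired. The highest (0.349) was that of Control_3D 1 with Ni_3D 1, which hold the oestrogen-responsive transcripts. With the replicate block no member was called. The block lost the Ni_3D calls of STK3, WWC2 and RASSF1 (edgeR adjusted p = 0.105, 0.0660 and 0.202). Most groups hold 2 libraries, and depth ranged 10.3-fold, which limits the low gene ANKRD1 most.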
